A study of Danio rerio with 19 samples.

Results

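Cells that carried a fli1a:GFP reporter alone and cells that carried a sox10:DsRed reporter alone were compared directly, gene by gene, by RNA sequencing. Both populations were sorted by fluorescence from untreated wild-type zebrafish embryos with both transgenes, in a study of the pharyngeal arches in which they served as controls for double-positive arch cells. They make up 6 of the 19 libraries: 3 of fli1a-only cells (GFP positive and DsRed negative, given as mixed cells with vasculature) and 3 of sox10-only cells (GFP negative and DsRed positive, given as mixed cells with ear). The libraries were chosen by their titles, and the arch cells took no part in the comparison. The labels place all fli1a-only libraries at 36 hours post fertilization (hpf). They place sox10-only replicates 1, 2 and 3 at 20, 28 and 36 hpf, whereas the series design calls the 3 libraries replicates collected at the same time as the 36 hpf arch cells. The sort sets what each population can model. Each holds cells of any type in which fluorescence of 1 reporter was detected and that of the other was not. The labels do not say how many embryos went into a library.

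The gene fli1a encodes an ETS-family transcription factor of endothelial cells, blood progenitors and arch mesenchyme, and its promoter labels vessels in the zebrafish embryo. The gene sox10 encodes a SOX-family transcription factor that neural crest cells need to become pigment cells, glia and peripheral neurons, and its promoter is also active in the otic vesicle, from which the inner ear forms. Double-positive cells, which were sorted away from both populations, are mostly the arch neural crest that forms the skeleton of the jaw and gills.

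Values are in TPM (transcripts per 1000000), which are scaled for gene length within each library, so that levels of different genes can be compared. Globin transcripts made up 31.9%, 62.7% and 23.1% of TPM in fli1a-only replicates 1, 2 and 3 and at most 0.196% in the sox10-only libraries. They were removed and each library was scaled back to 1000000. After that step between 13581 and 15205 genes reached 1 TPM in each of the 6 libraries. Correlations of log2 values between libraries lay between 0.905 and 0.947 within a population and between 0.768 and 0.855 across populations. Libraries with the same replicate number in both populations deviated from their group means together. TPM keeps no depth, so the depth behind each value is unknown. Throughout, values are listed in the order of replicates 1, 2 and 3, n is 3 libraries in each population, and a log2 difference is fli1a-only minus sox10-only on the log2(TPM + 1) scale, ± its standard error. In such bulk samples, fewer cells of a type and less RNA per cell cannot be told apart.

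The genes whose promoters drove the sort were read first, as a check of the labels. The gene fli1a stood at 47.0, 30.1 and 53.8 TPM in fli1a-only and 2.11, 2.03 and 2.34 TPM in sox10-only libraries. Levels of sox10 were 5.60, 4.46 and 6.33 TPM in fli1a-only and 711, 834 and 911 TPM in sox10-only libraries. Every library lay on the side its label gives, and neither gene overlapped between the populations. The log2 differences were 3.78 ± 0.28 for fli1a and -6.99 ± 0.22 for sox10, and since the sort used both promoters, they are not a finding.

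Of 15009 genes with a mean of at least 1 TPM, 822 (5.48%) were higher in fli1a-only cells and 965 (6.43%) were higher in sox10-only cells at an adjusted p under 0.05 (limma, Benjamini-Hochberg), which together is 11.9% of the genes tested; this is the background for every count of list members below. Of 673 list members found in the table without globins, 563 reached that mean; a member could reach it through the population where it was high, so counts over tested members are a description. The differences were large: among called genes the median absolute log2 difference was 2.38 for those higher in fli1a-only cells and 1.87 for those higher in sox10-only cells. A difference of more than 6 on the log2 scale was reached by 18 genes toward fli1a-only cells and by 37 genes toward sox10-only cells. The median over all tested genes was -0.15. Libraries of the populations did not overlap for 1701 tested genes (11.3%) higher in fli1a-only cells and 2892 (19.3%) higher in sox10-only cells. All 822 and all 965 called genes were among them, so a lack of overlap adds nothing to a call. With the replicate number as a block, 1427 genes (9.51%) were higher in fli1a-only cells, and 1823 (12.1%) had their higher level in sox10-only cells. These included 816 of the 822 and 960 of the 965. With globin genes left in the table the split moved to 554 against 2303, around a median of -0.79 over all genes, and with the values as deposited, globins included and not rescaled, to 230 against 1230. Of the genes named below with a difference, keeping the globins ended the calls of ackr3b, apln, ccr9a, cdh11, col9a1a, dlx4a, dusp1, edn2, efnb2b, elk3, epha2a, lyz, myf5 and sox3, all of them toward fli1a-only cells. Against the sox10-only library labelled 36 hpf alone, 205 genes were higher in fli1a-only cells and 551 in the sox10-only library, which was assumed to vary like the fli1a-only libraries, and 64 of the 181 genes named with a difference lost their call. Of the 822 and 965 genes, 453 and 478 were called with each of the 6 libraries left out in turn. An adjusted p given below without 1 library is the highest of these 6 fits, and other fits could also end the call. Of the genes so given, dlb, dlx4a, edn2, efnb2b, gata2b, kcnj8, ltk and lyz lost it in 5 of the 6 fits. In 4 of the 6 fits, alad, ccr9a, cxcl12b, elk3, epha2a, myf5, nr4a1, sox3 and sox21b lost it. Without fli1a-only replicates 1, 2 and 3 in turn, 600, 604 and 584 genes were higher in sox10-only cells, and without sox10-only replicates 2 and 3, 630 and 578 were. Without sox10-only replicate 2, 525 genes were higher in fli1a-only cells.

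**Figure D1:**
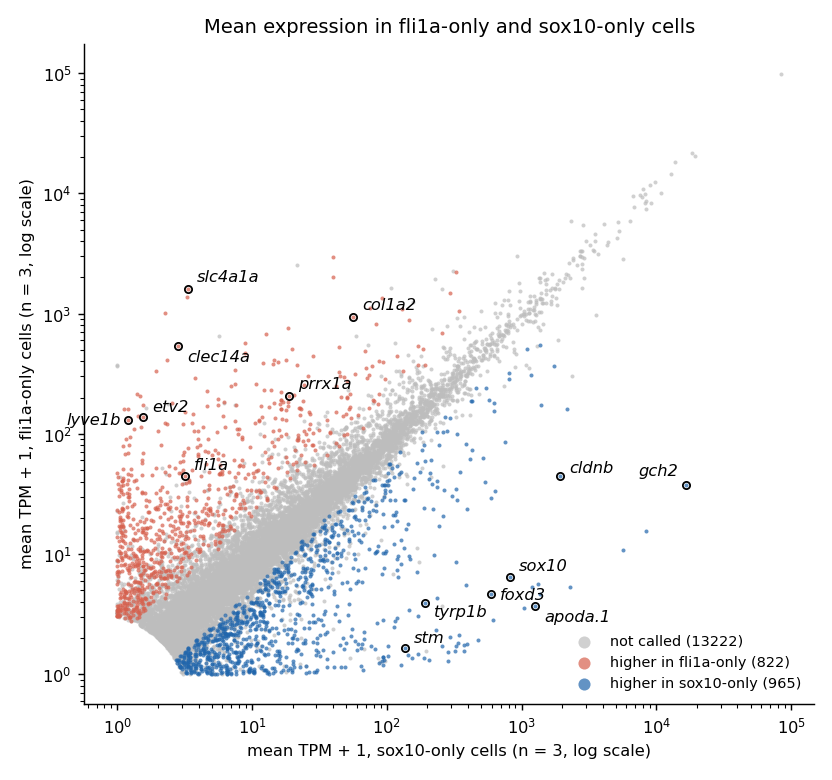
Mean TPM + 1 of each tested gene in sox10-only cells (x axis) and fli1a-only cells (y axis), both on a log scale, with 3 libraries in each mean; coloured points passed an adjusted p of 0.05. Vessel and red cell genes such as clec14a and slc4a1a lie at the upper left, and pigment cell genes such as gch2 and apoda.1 lie at the lower right.

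The 10 largest differences toward fli1a-only cells, among called genes with at least 10 TPM in the higher population and no overlap between libraries, were mostly genes of red blood cells and vessels. The gene slc4a1a, the anion exchanger of the red cell membrane, stood at 538, 3659 and 604 TPM in fli1a-only and 0.842, 1.42 and 4.78 TPM in sox10-only libraries. The log2 difference was 8.49 ± 0.79 (adjusted p = 0.000887). The heme enzyme gene alas2 (8.27), the red cell transcription factor gene gata1a (6.76) and hemgn, listed in the table as si:dkey-25o16.2 (8.28), were also among the 10. Vessel genes in this set were plvapb, listed as vsg1, whose product forms the diaphragms of endothelial pores (7.47), the endothelial surface lectin gene clec14a (7.46), the receptor gene gpr182 (7.38) and sele, which encodes the leukocyte-binding adhesion protein E-selectin (6.77). The remaining genes were nmt1b (6.83) and the unnamed si:ch211-214p16.1 (6.92).

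The 10 largest differences toward sox10-only cells included 3 genes of pigment cells. The gene gch2 encodes GTP cyclohydrolase, the first enzyme of the pathway that makes yellow pteridine pigment. It stood at 22.3, 70.18 and 17.13 TPM in fli1a-only and 11599, 28969.5 and 9075 TPM in sox10-only libraries. This was a log2 difference of -8.87 ± 0.63 (adjusted p = 0.000349). This single gene was among the most abundant in every sox10-only library. The iridophore genes apoda.1 (-8.42) and pnp4a, which encodes a purine nucleoside phosphorylase (-8.16), belonged to the set, as did defbl1, a beta-defensin-like gene (-8.94), rbp4l, a retinol-binding protein gene (-8.14), slc22a7a, a transporter gene (-7.91), and akr1b1, an aldo-keto reductase gene (-7.81). A further 3 genes had no functional name: wu:fc46h12 (-9.17), si:dkey-251i10.2 (-8.86) and BX664614.1 (-7.80). All 20 genes at both ends were called with each library left out.

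Most endothelial genes were higher in fli1a-only cells. Of 27 tested genes for endothelial receptors, adhesion and junction proteins, 24 were higher in fli1a-only cells and the other 3 missed the threshold, with a median log2 difference of 3.92. Summed over the list, fli1a-only libraries held 3247 ± 1307 TPM (SD) and sox10-only libraries 242.8 ± 93.9 TPM. Among 18 tested endothelial transcription factors, 11 were higher in fli1a-only cells and 1, gata2a, was higher in sox10-only cells, with a median of 3.75.

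The transcription factor that starts the endothelial program, etv2, stood at 121, 90.5 and 199.8 TPM in fli1a-only and 0.780, 0.0634 and 0.782 TPM in sox10-only libraries. The log2 difference was 6.45 ± 0.37 (adjusted p = 0.000252). Its level was below 1 TPM in every sox10-only library, far from the lowest fli1a-only library. The ETS gene erg stood at 68.8, 66.4 and 103 TPM in fli1a-only and 0.141, 0 and 0.531 TPM in sox10-only libraries (6.03 ± 0.29). Flow-responsive Kruppel-like factors were among the most abundant of the list: klf2a stood at 434, 321 and 413 TPM in fli1a-only and 11.57, 10.8 and 10.5 TPM in sox10-only libraries (5.02 ± 0.21). The factors tal1 (4.16 ± 0.49) and lmo2 (4.89 ± 0.40), which act in both blood and vessel formation, were highest in fli1a-only replicate 2, the library with most globin. Not every factor used by vessels differed: ets1, at 10.9, 15.5 and 27.0 TPM in fli1a-only and 8.60, 23.7 and 25.1 TPM in sox10-only libraries, overlapped between the populations, as did hey2, nr2f2, prox1a, mef2ca and mef2cb.

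Cell surface genes of vessels ranged from near 0 to abundant in sox10-only cells. The gene cdh5, which encodes the adherens junction protein VE-cadherin, stood at 29.0, 16.0 and 46.5 TPM in fli1a-only and 0.0677, 0.122 and 0.107 TPM in sox10-only libraries. That gave a log2 difference of 4.72 ± 0.39 (adjusted p = 0.000551). The angiopoietin receptor family gene tie1 stood at 35.3, 30.303 and 83.3 TPM in fli1a-only and 0.406, 0 and 0.356 TPM in sox10-only libraries (5.21 ± 0.42). Its relative tek stood at 13.2, 20.6 and 40.9 TPM in fli1a-only and 0.253, 0.322 and 0.422 TPM in sox10-only libraries (4.14 ± 0.41). The most abundant adhesion gene of the list was cldn5b, a tight junction claudin of vessels, at 389, 564 and 1339 TPM in fli1a-only and 5.10, 27.95 and 19.2 TPM in sox10-only libraries (5.45 ± 0.67). In each of these genes fli1a-only replicate 3 was the highest of the 6 libraries and no libraries overlapped. The sphingosine-1-phosphate receptor gene s1pr1, at 205, 338 and 327 TPM in fli1a-only and 96.4, 267 and 146 TPM in sox10-only libraries, was abundant in both populations and missed the threshold (adjusted p = 0.26; 0.0286 with the replicate block).

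Markers of vein and lymphatic endothelium were read apart from markers of artery. Of 10 tested venous and lymphatic genes, 6 were higher in fli1a-only cells (median log2 difference 3.16), and of 8 tested arterial genes, 3 were (median 1.60), or 5 with the replicate block. With each library left out, all 6 of the former and 1 of the 3 arterial genes were called. The difference between the lists was not tested. The venous and lymphatic genes ephb4a, nr2f2, prox1a and ctsla and the arterial genes efnb2a, hey2, notch1b, tbx20 and cxcr4a missed the threshold. Of these, efnb2a and cxcr4a passed with the block (adjusted p = 0.0264 and 0.000501). The hyaluronan receptor gene lyve1b stood at 82.4, 84.6 and 220.2 TPM in fli1a-only and 0.256, 0 and 0.350 TPM in sox10-only libraries. The log2 difference was 6.61 ± 0.42 (adjusted p = 0.000268). The scavenger receptor genes stab2 (4.50 ± 0.40) and stab1 (3.34 ± 0.39) and the mannose receptor gene mrc1a (4.34 ± 0.38) were called in the same direction. On the arterial side, the Notch ligand gene dll4 stood at 52.7, 50.2 and 80.6 TPM in fli1a-only and 11.0, 11.58 and 13.7 TPM in sox10-only libraries (2.22 ± 0.26; adjusted p = 0.0021), so that sox10-only cells held it as well. The aquaporin gene aqp8a.1, at 4.14, 13.9 and 36.2 TPM in fli1a-only and 0.227, 0 and 0.0516 TPM in sox10-only libraries (3.70 ± 0.66), was called with all libraries (adjusted p = 0.0127) but not in every smaller set (adjusted p = 0.0519 without fli1a-only replicate 2).

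**Figure D2:**
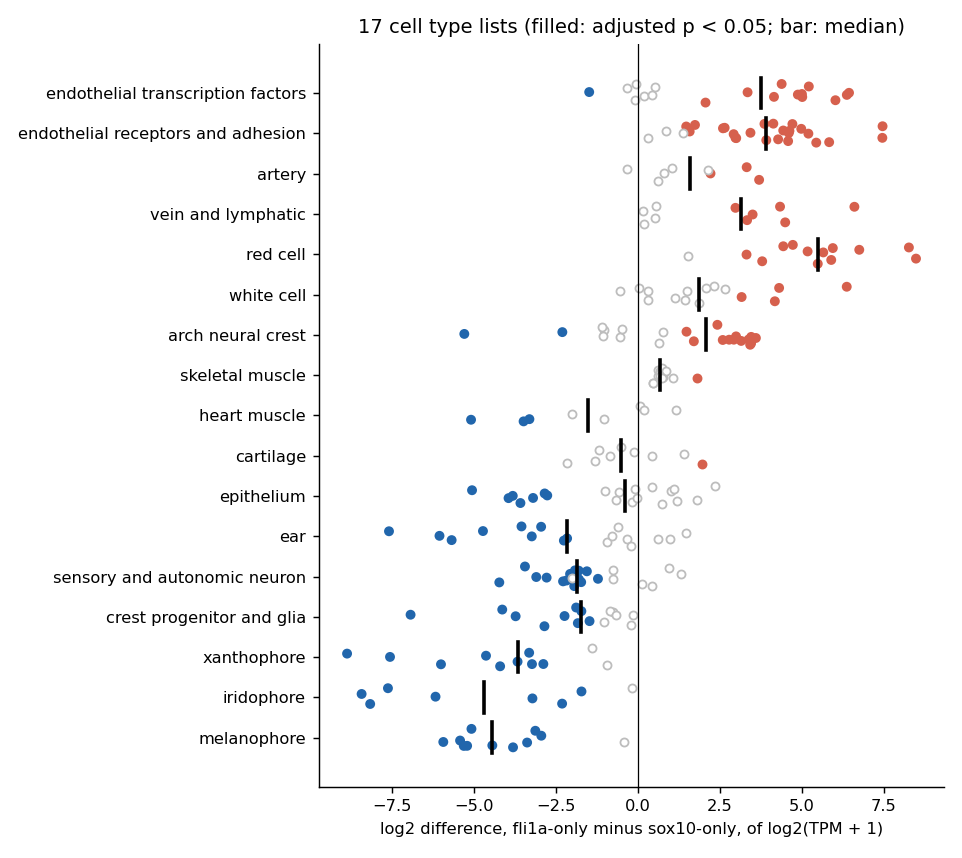
Log2 difference (fli1a-only minus sox10-only) of each tested member of 17 cell type lists; each point is 1 gene, filled where its adjusted p was under 0.05, and the bar is the list median. Medians of vessel and red cell lists lie to the right of 0, those of pigment lists to the left, and epithelium, skeletal muscle and cartilage lists straddle 0 or have few filled points.

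Most red cell genes other than the removed globins were higher in fli1a-only cells. Of 13 tested, 12 were higher in fli1a-only cells, with a median log2 difference of 5.49, and the remaining gene, slc25a37, passed with the replicate block alone (adjusted p = 0.0657 without it and 0.0146 with it). Their sum was 6864 ± 7221 TPM in fli1a-only libraries and 73.0 ± 36.0 TPM in sox10-only libraries. The wide spread came from fli1a-only replicate 2: alas2 stood at 288, 2355 and 363 TPM in fli1a-only and 0.447, 0.506 and 2.84 TPM in sox10-only libraries. The other 2 fli1a-only libraries still lay far above every sox10-only library (log2 difference 8.27 ± 0.82; adjusted p = 0.00109). The carbonic anhydrase gene cahz was also highest in fli1a-only replicate 2, at 1182, 6563 and 1038 TPM in fli1a-only and 37.4, 14.0 and 64.2 TPM in sox10-only libraries (5.90 ± 0.82).

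Genes of heme synthesis were called beside those of the red cell membrane. Of 21 tested genes for heme synthesis and iron handling, 9 were higher in fli1a-only cells, against 2 in sox10-only cells, with a median of 2.00, and with the replicate block the counts were 16 and 3. With each library left out, 6 of the 11 were called. Besides alas2, the enzyme genes urod (3.80 ± 0.50), fech (3.32 ± 0.57), hmbsb (4.42 ± 0.70), cpox (2.87 ± 0.54), ppox (2.99 ± 0.59) and alad (2.49 ± 0.57) were called, of which alad, cpox and ppox lost their call when 1 library was left out (adjusted p = 0.101 without sox10-only replicate 3, 0.0507 without sox10-only replicate 2 and 0.0598 without sox10-only replicate 3). The 2 genes that went the other way were the housekeeping forms of genes whose erythroid forms were higher in fli1a-only cells. The ubiquitous synthase gene alas1 stood at 68.8, 93.2 and 77.8 TPM in fli1a-only and 254, 310.1 and 164 TPM in sox10-only libraries. This was a log2 difference of -1.55 ± 0.29 (adjusted p = 0.0145, and 0.0562 without fli1a-only replicate 3). The transferrin receptor gene tfr1b stood at 13.2, 11.3 and 20.2 TPM in fli1a-only and 40.1, 63.7 and 45.8 TPM in sox10-only libraries (-1.69 ± 0.30; adjusted p = 0.0119). By contrast tfr1a, the zebrafish red cell transferrin receptor, stood at 21.7, 57.5 and 12.8 TPM in fli1a-only and 0.153, 0.149 and 0.349 TPM in sox10-only libraries (4.44 ± 0.51; adjusted p = 0.00211).

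White cell genes varied widely among fli1a-only libraries. Of 15 tested, 4 were higher in fli1a-only cells (median log2 difference 1.88), and 10 were with the replicate block, but only 1 with each library left out. The lysozyme gene lyz stood at 648, 513 and 4938 TPM in fli1a-only and 1.43, 10.23 and 104 TPM in sox10-only libraries, so that replicate 3 was the highest in each population. Its log2 difference was 6.38 ± 1.43 (adjusted p = 0.0309, and 0.0979 without sox10-only replicate 2). The hematopoietic progenitor gene myb, at 26.9, 29.5 and 78.0 TPM in fli1a-only and 0.305, 1.49 and 2.45 TPM in sox10-only libraries, was called in every set of libraries (4.18 ± 0.52; adjusted p = 0.00291). The macrophage genes mfap4 and mpeg1.1 overlapped between the populations, mpeg1.1 at 8.46, 6.68 and 13.1 TPM in fli1a-only and 2.69, 4.92 and 23.3 TPM in sox10-only libraries. Of 5 tested thrombocyte genes, 3 were called higher in fli1a-only cells: the sorted gene fli1a itself, the transcriptional repressor gene gfi1b (3.59 ± 0.54) and the platelet glycoprotein gene gp1bb (3.68 ± 0.51).

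**Figure D3:**
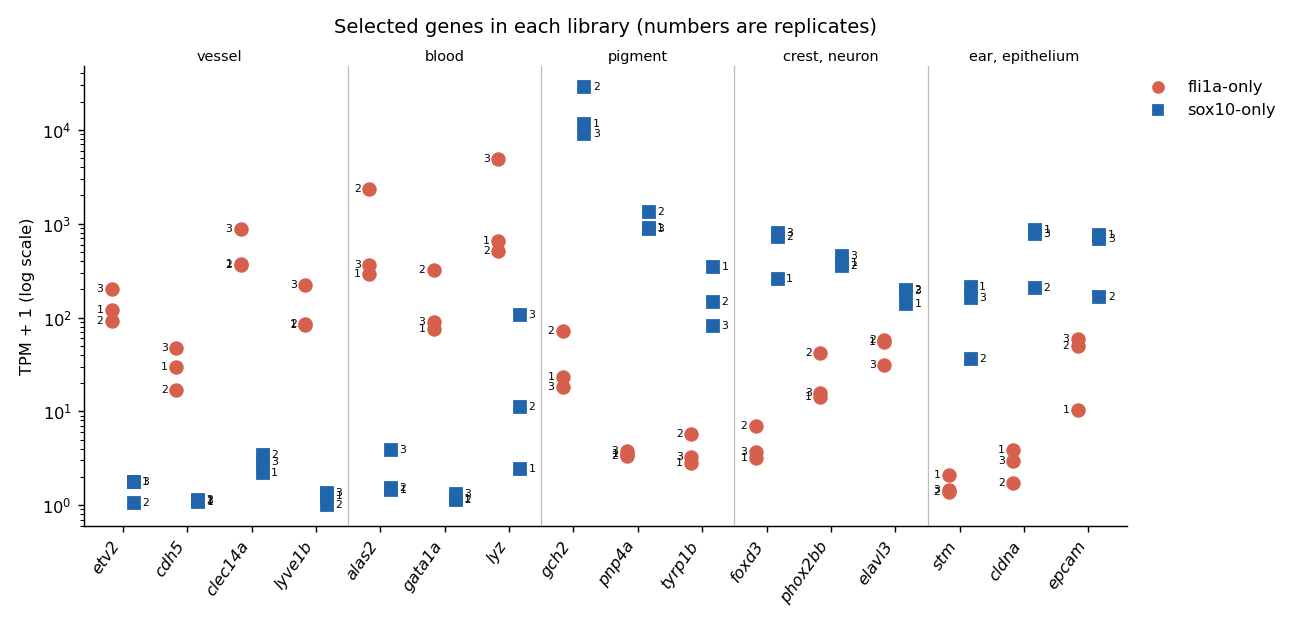
TPM + 1 on a log scale in each library for 16 genes of vessels, blood, pigment cells, nervous system and ear; circles are fli1a-only and squares sox10-only libraries, numbered by replicate. Vessel and blood genes separate upward for fli1a-only cells and pigment and ear genes for sox10-only cells, with stm lowest in sox10-only replicate 2 and alas2 highest in fli1a-only replicate 2.

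Most, but not all, tested genes of arch and head mesenchyme were higher in fli1a-only than in sox10-only cells, even though double-positive arch cells had been sorted away from both. Of 22 tested arch neural crest genes, 13 were higher in fli1a-only cells, against 2 in sox10-only cells, or 4 with the replicate block, with a median log2 difference of 2.07. Differences were positive for 15 genes and negative for 7. Without the block, the 2 were dlx5a and ednrab. The members hand2, hoxa2b and hoxb2a missed the threshold, as did dlx genes given below. With each library left out, 11 of the 15 called genes were called. The homeobox gene prrx1a stood at 207, 225 and 186 TPM in fli1a-only and 15.9, 18.7 and 18.8 TPM in sox10-only libraries. That gave a log2 difference of 3.46 ± 0.20 (adjusted p = 0.000252). The mesenchymal transcription factor gene twist1a stood at 463, 1321 and 649 TPM in fli1a-only and 32.4, 142 and 72.6 TPM in sox10-only libraries (3.38 ± 0.60; adjusted p = 0.012). The forkhead gene foxc1a (3.46 ± 0.36), the platelet-derived growth factor receptor gene pdgfra (3.00 ± 0.33) and foxd2 (2.43 ± 0.29) were called as well. The homeobox gene dlx5a went the other way, at 104, 85.9 and 51.2 TPM in fli1a-only and 414, 419 and 326 TPM in sox10-only libraries (-2.30 ± 0.30; adjusted p = 0.00371), and the other dlx genes were divided: dlx4a was higher in fli1a-only cells (1.49 ± 0.35; adjusted p = 0.0377, and 0.121 without fli1a-only replicate 2), while dlx2a, dlx3b, dlx4b and dlx6a missed the threshold, which dlx3b passed with the block (adjusted p = 0.0302).

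Matrix genes were called in both directions. Of 29 tested matrix genes, 9 were higher in fli1a-only cells, against 2 in sox10-only cells. The counts were 12 and 6 with the replicate block, and 5 of the 11 were called with each library left out. Their median of 0.44 turned to -0.13 with globins kept, to -0.11 as deposited and to -0.35 against the library labelled 36 hpf alone. The type I collagen gene col1a2 stood at 698, 1078 and 1011 TPM in fli1a-only and 19.5, 78.9 and 66.5 TPM in sox10-only libraries. The log2 difference was 4.25 ± 0.52 (adjusted p = 0.0027). Its partner col1a1a stood at 399, 1196 and 1735 TPM in fli1a-only and 14.2, 87.5 and 120.3 TPM in sox10-only libraries (4.11 ± 0.87), with replicate 1 the lowest in both populations, and its adjusted p was 0.0249, 0.000203 with the replicate block and 0.0921 without fli1a-only replicate 2. The type VI collagen gene col6a1 (2.89 ± 0.31), the laminin gene lamc3 (2.62 ± 0.29) and the thrombospondin gene thbs4b (4.01 ± 0.24) were called. The basement membrane collagen gene col4a1 overlapped fully, at 20.8, 16.97 and 32.8 TPM in fli1a-only and 12.1, 27.8 and 34.7 TPM in sox10-only libraries. Toward sox10-only cells, the basement membrane gene col18a1a stood at 2.27, 3.60 and 5.12 TPM in fli1a-only and 13.5, 27.1 and 38.03 TPM in sox10-only libraries (-2.48 ± 0.43; adjusted p = 0.0111) and the laminin gene lamb1b at 10.02, 8.61 and 16.7 TPM in fli1a-only and 34.44, 41.2 and 77.0 TPM in sox10-only libraries (-1.99 ± 0.38; adjusted p = 0.0171, and 0.0625 without fli1a-only replicate 2).

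Of 6 tested genes of mural cells, the contractile cells around vessels, 2 were higher in fli1a-only cells, and the replicate block added acta2 toward sox10-only cells (adjusted p = 0.0335). The median of 0.38 turned to -0.42 with a mean of at least 5 TPM, -0.70 as deposited, -0.23 against the library labelled 36 hpf alone and -0.13 without fli1a-only replicate 3. The called genes were the platelet-derived growth factor receptor gene pdgfrb, at 4.54, 5.15 and 6.21 TPM in fli1a-only and 0.189, 0.581 and 0.697 TPM in sox10-only libraries (2.09 ± 0.26; adjusted p = 0.00276), and the potassium channel gene kcnj8 (2.30 ± 0.49; adjusted p = 0.0246, and 0.0842 without sox10-only replicate 2). The contractile genes acta2 and tagln were below 1 TPM in every fli1a-only library and reached 3.05 and 9.36 TPM in sox10-only replicate 3.

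All 3 pigment cell types of the larva were represented in sox10-only cells. Of the tested members, 9 of 11 xanthophore, 7 of 8 iridophore and 10 of 11 melanophore genes were higher in sox10-only cells, with median log2 differences of -3.67, -4.69 and -4.44. With each library left out, 7, 5 and 10 of them were called. Summed levels were 199.3 times as high for xanthophore genes, 85.9 times for iridophore genes and 69.3 times for melanophore genes as in fli1a-only cells. The xanthophore sum of 17734 ± 11273 TPM in sox10-only cells consisted mainly of gch2.

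Xanthophore genes covered pigment synthesis, identity and survival. The oxidase gene aox5, listed as aox3, stood at 0.638, 0.675 and 0.367 TPM in fli1a-only and 317, 479 and 163 TPM in sox10-only libraries. This was a log2 difference of -7.56 ± 0.40 (adjusted p = 0.000252). The transporter gene slc2a15b stood at 0.231, 0.565 and 0.342 TPM in fli1a-only and 76.9, 137 and 62.3 TPM in sox10-only libraries (-6.00 ± 0.34). Levels of pax7b, a transcription factor gene of the xanthophore lineage, were 1.74, 1.61 and 1.73 TPM in fli1a-only and 18.5, 37.3 and 20.4 TPM in sox10-only libraries (-3.23 ± 0.31). The receptor gene csf1ra, which xanthophores need, stood at 0.235, 0.182 and 0.981 TPM in fli1a-only and 4.18, 19.7 and 9.71 TPM in sox10-only libraries (-2.88 ± 0.52; adjusted p = 0.0132, and 0.0553 without fli1a-only replicate 2). In most of these genes sox10-only replicate 2, labelled 28 hpf, was the highest library. The 2 members that missed the threshold, pax7a and sox5, passed it with the replicate block (adjusted p = 0.0309 and 0.0218).

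Most genes for enzymes that feed pigment synthesis were higher in sox10-only cells, on both branches. Of 16 tested genes for pteridine and purine synthesis, 13 were higher in sox10-only cells, with a median of -3.15, and 15 were with the replicate block. The other 3, spra, pnp5a and mycbp2, missed the threshold without the block. For the pathway that builds purines, paics stood at 37.3, 23.6 and 35.43 TPM in fli1a-only and 691, 832 and 367 TPM in sox10-only libraries (-4.20 ± 0.36), and ppat (-3.08 ± 0.32), gart (-2.64 ± 0.31), pfas (-3.59 ± 0.41), adsl (-2.97 ± 0.33) and atic (-3.21 ± 0.41) went the same way. Purines are the starting material both for the guanine crystals of iridophores and, through GTP, for pteridines. On the pteridine branch, gch1 (-2.13 ± 0.33), pcbd1 (-2.10 ± 0.34), qdpra (-3.84 ± 0.58) and xdh (-4.63 ± 0.45) were called. The gene pts, at 0.0338, 0.0428 and 0.00961 TPM in fli1a-only and 21.3, 11.63 and 2.78 TPM in sox10-only libraries, was lower in each sox10-only library with a later label and was called with all libraries (-3.31 ± 0.61; adjusted p = 0.0141, and 0.0544 without fli1a-only replicate 2).

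The iridophore and melanophore genes given here had low levels in fli1a-only cells. The iridophore list summed to 32.8, 35.2 and 32.1 TPM there, and its member mpv17 missed the threshold. The gene pnp4a stood at 2.55, 2.35 and 2.78 TPM in fli1a-only and 905, 1335 and 870.3 TPM in sox10-only libraries (adjusted p = 4.1e-05). The glycoprotein gene gpnmb stood at 0.270, 0.727 and 0.638 TPM in fli1a-only and 108, 539.6 and 461 TPM in sox10-only libraries (-7.62 ± 0.60). The transcription factor gene tfec stood at 0.765, 0.742 and 1.49 TPM in fli1a-only and 9.14, 25.6 and 21.6 TPM in sox10-only libraries (-3.21 ± 0.41). In the melanophore list, tyrp1b stood at 1.83, 4.68 and 2.25 TPM in fli1a-only and 344, 147 and 79.4 TPM in sox10-only libraries (-5.42 ± 0.55, adjusted p = 0.00119). Levels of pmela were 1.59, 1.91 and 1.86 TPM in fli1a-only and 156, 116 and 71.4 TPM in sox10-only libraries (-5.31 ± 0.32, adjusted p = 0.000253). The tyrosinase gene tyr stood at 0, 0.0374 and 0.101 TPM in fli1a-only and 6.05, 21.9 and 18.3 TPM in sox10-only libraries (-3.80 ± 0.46). The master regulator gene mitfa stood at 0.0286, 0.0995 and 0.156 TPM in fli1a-only and 4.90, 14.4 and 8.54 TPM in sox10-only libraries (-3.12 ± 0.37). Both were lower in level, and their libraries did not overlap either. The kit receptor gene kita, on which melanophore survival depends, stood at 0.614, 0.597 and 1.78 TPM in fli1a-only and 0.752, 1.48 and 2.97 TPM in sox10-only libraries and missed the threshold (adjusted p = 0.589).

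Crest progenitor and glial genes were higher in sox10-only cells in 9 of 15 tested, with a median of -1.72, and in 5 with each library left out. The crest transcription factor gene foxd3 stood at 2.15, 5.996 and 2.69 TPM in fli1a-only and 259, 714 and 790.2 TPM in sox10-only libraries. That gave a log2 difference of -6.93 ± 0.50 (adjusted p = 0.000351). The neuregulin receptor gene erbb3b, needed by Schwann cells, stood at 0.116, 0.0386 and 0.121 TPM in fli1a-only and 13.3, 16.98 and 26.2 TPM in sox10-only libraries (-4.13 ± 0.30; adjusted p = 0.000351). Levels of tfap2a (-1.88 ± 0.24) and zeb2a (-1.83 ± 0.19) differed less, and fli1a-only cells also held them, tfap2a at 40.9, 47.9 and 37.0 TPM. The radial glial gene fabp7a was abundant in both, at 2668, 517 and 1719.7 TPM in fli1a-only and 2719, 3610.1 and 2103 TPM in sox10-only libraries, and missed the threshold (adjusted p = 0.356). The myelin genes mpz and mbpa were below 1 TPM in all 6 libraries. In the same list, mbpb and egr2b were called toward sox10-only cells, but not in every smaller set of libraries. Their adjusted p was 0.0557 for mbpb without sox10-only replicate 3 and 0.079 for egr2b without sox10-only replicate 2.

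Neuronal genes were higher in sox10-only cells for 15 of 22 tested sensory and autonomic neuron genes, with a median of -1.84. With each library left out, 11 of the 15 were called. The autonomic neuron gene phox2bb stood at 13.2, 40.6 and 14.7 TPM in fli1a-only and 378, 356 and 447 TPM in sox10-only libraries. The log2 difference was -4.22 ± 0.42 (adjusted p = 0.00109). The sensory neuron gene isl2b stood at 1.53, 1.95 and 2.07 TPM in fli1a-only and 26.7, 28.2 and 35.3 TPM in sox10-only libraries (-3.44 ± 0.24; adjusted p = 0.000344). Receptors of enteric neuron precursors, ret (-2.78 ± 0.33) and gfra1b (-3.09 ± 0.33), went the same way, while th and dbh, which encode noradrenaline-making enzymes, were below 1 TPM in every library. Genes of neurons in general differed by less and were also present in fli1a-only cells: elavl3 stood at 53.7, 56.9 and 29.9 TPM in fli1a-only and 139, 194 and 191 TPM in sox10-only libraries (-1.91 ± 0.30; adjusted p = 0.0079).

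Proneural and neural progenitor genes were abundant in both populations. The gene ascl1a stood at 743, 249.6 and 581 TPM in fli1a-only and 207, 394 and 185 TPM in sox10-only libraries, neurod4 at 361, 141 and 304 TPM in fli1a-only and 68.5, 131 and 108 TPM in sox10-only libraries and olig2 at 97.9, 59.7 and 134 TPM in fli1a-only and 37.0, 112 and 71.5 TPM in sox10-only libraries, and all 3 missed the threshold (adjusted p = 0.292 for ascl1a and 0.0967 for neurod4). The progenitor gene sox3 was higher in fli1a-only cells, at 692, 237 and 412 TPM in fli1a-only and 112, 139 and 101 TPM in sox10-only libraries (1.80 ± 0.40; adjusted p = 0.0289, and 0.0985 without sox10-only replicate 3). Among 9 tested genes of central neural progenitors, it was the only one called in that direction, and olig1 (-2.83 ± 0.25) and nkx2.2a (-2.49 ± 0.38) were called in the other. Both populations held transcripts of neural progenitors, and their part in other differences was not tested.

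Otic genes were higher in sox10-only cells for 9 of 17 tested, with a median of -2.15, and 6 of the 9 were called with each library left out. The gene stm, which encodes an otolith matrix protein, stood at 1.11, 0.375 and 0.452 TPM in fli1a-only and 209, 35.1 and 159 TPM in sox10-only libraries. This was a log2 difference of -6.05 ± 0.65 (adjusted p = 0.00146). The otolith matrix gene otomp stood at 0.513, 0.0993 and 0.267 TPM in fli1a-only and 136, 15.5 and 123 TPM in sox10-only libraries (-5.68 ± 0.78). The inner ear transcription factor gene hmx2 stood at 0.145, 1.35 and 0.908 TPM in fli1a-only and 62.4, 23.6 and 59.2 TPM in sox10-only libraries (-4.72 ± 0.46; adjusted p = 0.001). The claudin gene cldna, used here as an otic epithelial marker, stood at 2.84, 0.732 and 1.97 TPM in fli1a-only and 861, 208 and 779.6 TPM in sox10-only libraries (-7.59 ± 0.59; adjusted p = 0.000464). In all 4 genes sox10-only replicate 2, labelled 28 hpf, was the lowest of the 3, yet it stayed above every fli1a-only library. The placode genes pax2a, six1b, eya1 and pax8 missed the threshold, of which pax8 passed it toward fli1a-only cells with the block (adjusted p = 0.00611). Of 4 tested hair cell genes, pvalb9 alone was called (-3.09 ± 0.62; adjusted p = 0.0202, and 0.058 without fli1a-only replicate 2), and tmc2b, lhfpl5a and slc17a8 were at or near 0 in fli1a-only cells and below 1 TPM in at least 1 sox10-only library.

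Of 20 tested epithelial genes 7 were higher in sox10-only cells, 4 of them with each library left out, and the replicate block gave 8 and added 4 toward fli1a-only cells. The list median of -0.38 turned to 0.18 without fli1a-only replicate 1. The gene epcam, which encodes an adhesion molecule of simple epithelia, stood at 9.45, 48.6 and 58.7 TPM in fli1a-only and 754, 163 and 690.1 TPM in sox10-only libraries (-3.81 ± 0.82; adjusted p = 0.027, and 0.0913 without sox10-only replicate 3). The claudin gene cldnb stood at 22.7, 41.76 and 65.5 TPM in fli1a-only and 3882, 441 and 1437 TPM in sox10-only libraries (-5.05 ± 0.78). For agr2, of secretory epithelia, levels were 3.47, 10.5 and 10.01 TPM in fli1a-only and 182, 53.8 and 203 TPM in sox10-only libraries (-3.94 ± 0.60). These genes were lowest in sox10-only replicate 2, as the otic genes were. The periderm keratin gene krt4 stood at 175, 1979.6 and 1699.7 TPM in fli1a-only and 242, 1415 and 703 TPM in sox10-only libraries, missed the threshold and was lowest in replicate 1 of both populations. The same held for cyt1, at 2.97, 79.9 and 83.6 TPM in fli1a-only and 0.891, 38.5 and 29.9 TPM in sox10-only libraries, for which the block gave an adjusted p of 0.00712.

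Of 8 tested heart muscle genes 3 were higher in sox10-only cells, and 4 with the replicate block, which added 1 toward fli1a-only cells. The cardiac myosin light chain genes were cmlc1, at 1.92, 3.57 and 0 TPM in fli1a-only and 70.9, 161 and 43.7 TPM in sox10-only libraries (-5.08 ± 0.67; adjusted p = 0.00369), and myl7, at 0.0782, 0.545 and 0.122 TPM in fli1a-only and 9.08, 27.9 and 7.93 TPM in sox10-only libraries (-3.48 ± 0.48; adjusted p = 0.00438), and the atrial heavy chain gene myh6 also passed (-3.30 ± 0.55). Replicate 2 was the highest library of each population for all of these genes. Skeletal muscle genes were present in both populations, actc1b at 592, 1151 and 2118 TPM in fli1a-only and 306, 912 and 1011 TPM in sox10-only libraries. Of 14 tested, 1 was called higher in fli1a-only cells, the myogenic factor gene myf5 (1.82 ± 0.38; adjusted p = 0.0227, and 0.0828 without sox10-only replicate 2), and 6 were with the replicate block.

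Members of the SOX family were called in both directions. Of 24 tested, 3 were higher in fli1a-only and 4 in sox10-only cells, and 5 and 9 with the replicate block. The 4 include sox10, whose promoter was used in the sort, so its call is not a finding. The vessel factor gene sox7 stood at 95.9, 56.0 and 85.2 TPM in fli1a-only and 1.55, 0.919 and 0.880 TPM in sox10-only libraries (5.22 ± 0.29). Its relative sox18 stood at 205, 225 and 438 TPM in fli1a-only and 0.575, 5.02 and 2.75 TPM in sox10-only libraries (6.38 ± 0.53). Both were called toward fli1a-only cells along with sox3. Besides sox10, its closest relatives sox8a (-2.66 ± 0.47) and sox8b (-2.85 ± 0.36) were higher in sox10-only cells, as was the neural gene sox21b (-1.56 ± 0.36; adjusted p = 0.0352, and 0.116 without sox10-only replicate 3). The remaining SOXE genes, sox9a and sox9b, overlapped between the populations, sox9b at 19.1, 36.01 and 84.8 TPM in fli1a-only and 18.4, 86.4 and 153 TPM in sox10-only libraries.

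Of 22 tested ETS genes, 6 were higher in fli1a-only cells, or 10 with the replicate block, and 1 in sox10-only cells; their median of 0.51 turned to -0.12 with globins kept and to -0.10 with the values as deposited. The 6 were etv2, erg, fli1a, fli1b (4.39 ± 0.41), fev and elk3 (1.39 ± 0.27; adjusted p = 0.0184, and 0.0757 without sox10-only replicate 2). Since the sort used the fli1a promoter, the call of fli1a is not a finding. The gene fev, known for its role in serotonin neurons, was listed at 0 in all 3 sox10-only libraries and stood at 6.26, 4.42 and 7.66 TPM in fli1a-only cells. The epithelial factor gene elf3 was the exception, at 0.0836, 1.17 and 4.27 TPM in fli1a-only and 41.2, 17.99 and 34.8 TPM in sox10-only libraries (-3.73 ± 0.60; adjusted p = 0.0085). The myeloid factors spi1a and spi1b reached adjusted p values of 0.211 and 0.0641, and of 0.0121 and 0.00235 with the replicate block. Of 6 tested GATA genes, 2 were higher in fli1a-only cells, or 3 with the block, and 1 in sox10-only cells; their median of 1.56 turned to -0.28 with the values as deposited. Besides gata1a, given above, gata2a stood at 18.9, 17.6 and 23.1 TPM in fli1a-only and 48.1, 57.7 and 66.1 TPM in sox10-only libraries (-1.48 ± 0.23; adjusted p = 0.00679). Its paralog gata2b stood at 3.91, 1.67 and 8.35 TPM in fli1a-only and 0.0268, 0.457 and 0.110 TPM in sox10-only libraries (2.07 ± 0.46; adjusted p = 0.0304, and 0.0924 without sox10-only replicate 3). Its call was lost in 5 of the 6 fits with 1 library left out.

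In several signalling pathways the ligand and the receptor genes were read side by side. Endothelin signalling, which patterns the arches and guides pigment cells, came first. The ligand gene edn1 stood at 11.0, 4.27 and 14.3 TPM in fli1a-only and 1.05, 1.15 and 0.287 TPM in sox10-only libraries (2.47 ± 0.45; adjusted p = 0.0138, and 0.0518 without sox10-only replicate 3). Its paralog edn2 stood at 48.1, 14.1 and 74.7 TPM in fli1a-only and 5.51, 3.39 and 5.50 TPM in sox10-only libraries (2.75 ± 0.58; adjusted p = 0.0243, and 0.0864 without sox10-only replicate 2). The receptor genes parted: ednraa stood at 63.5, 40.7 and 62.3 TPM in fli1a-only and 3.64, 3.27 and 3.76 TPM in sox10-only libraries (3.60 ± 0.26; adjusted p = 0.000348). In contrast, its paralog ednrab stood at 2.21, 2.23 and 1.36 TPM in fli1a-only and 97.7, 88.1 and 166 TPM in sox10-only libraries (-5.29 ± 0.31; adjusted p = 0.000252). The pigment cell receptor gene ednrba stood at 0.116, 0 and 0.423 TPM in fli1a-only and 41.5, 125 and 109 TPM in sox10-only libraries (-6.17 ± 0.44; adjusted p = 0.000349). No library of one population reached the range of the other for any of the 3 receptors.

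Of 20 tested genes for crest survival and pigment cell signalling, to which the endothelin genes belong, 11 were higher in sox10-only and 4 in fli1a-only cells, and 6 of them in fli1a-only cells with the replicate block. The ligand gene csf1b, whose receptor csf1ra was higher in sox10-only cells, was higher in fli1a-only cells, at 4.51, 3.70 and 4.23 TPM in fli1a-only and 0.411, 0.321 and 0.519 TPM in sox10-only libraries (1.86 ± 0.23; adjusted p = 0.00249). Both kit ligand genes were higher in sox10-only cells, kitlgb at 0.311, 1.03 and 0.926 TPM in fli1a-only and 31.5, 67.1 and 32.0 TPM in sox10-only libraries (-4.60 ± 0.37; adjusted p = 0.000518) and kitlga at 7.02, 5.46 and 6.98 TPM in fli1a-only and 22.5, 18.9 and 37.7 TPM in sox10-only libraries (-1.82 ± 0.31; adjusted p = 0.01), although the receptor gene kita did not differ past the threshold. The melanocortin receptor gene mc1r stood at 0.231, 0 and 0.961 TPM in fli1a-only and 44.7, 161 and 72.9 TPM in sox10-only libraries (-5.93 ± 0.50), highest in replicate 2. The iridophore receptor gene ltk stood at 0.111, 0.0686 and 0.258 TPM in fli1a-only and 1.53, 7.41 and 7.48 TPM in sox10-only libraries (-2.31 ± 0.49; adjusted p = 0.0251, and 0.0852 without fli1a-only replicate 2).

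**Figure D4:**
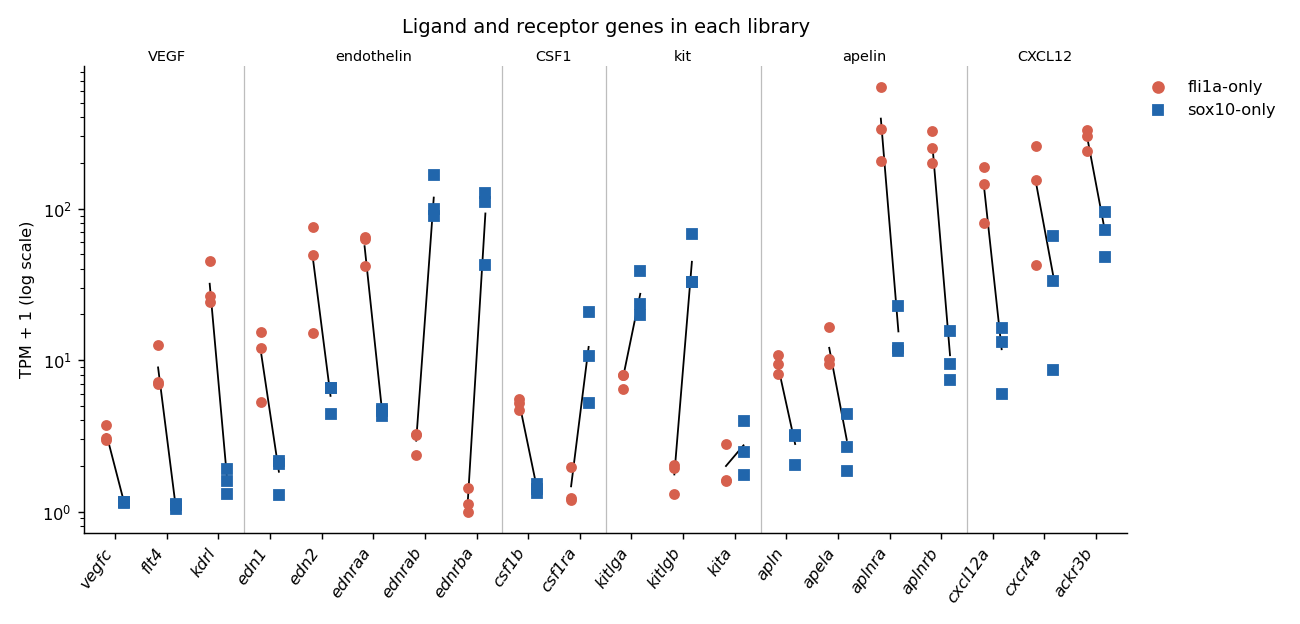
TPM + 1 on a log scale for 20 ligand and receptor genes of 6 pathways in each library; circles are fli1a-only and squares sox10-only libraries, and the line joins the population means. The plotted ligands and receptors of the VEGF, apelin and CXCL12 pathways have higher means in fli1a-only cells, with overlapping libraries for cxcr4a. The only VEGF ligand plotted is vegfc. Endothelin receptors split, and csf1b and csf1ra lie on different sides. The kit genes have higher means in sox10-only cells, with overlapping libraries for kita.

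VEGF and angiopoietin signalling was higher in fli1a-only cells on the receptor side. Of 17 tested genes 7 were called, all toward fli1a-only cells, with a median of 1.48, and 11 were with the replicate block. The VEGF receptor gene kdrl stood at 23.3, 25.5 and 44.0 TPM in fli1a-only and 0.296, 0.899 and 0.592 TPM in sox10-only libraries (4.28 ± 0.33; adjusted p = 0.000395). For flt4, the receptor of lymphatic growth, levels were 5.998, 6.21 and 11.61 TPM in fli1a-only and 0.0432, 0.0985 and 0.126 TPM in sox10-only libraries (2.98 ± 0.30; adjusted p = 0.00111). Its ligand gene vegfc was also higher, at 2.71, 1.96 and 2.04 TPM in fli1a-only and 0.156, 0.145 and 0.163 TPM in sox10-only libraries (1.48 ± 0.24; adjusted p = 0.00766). The ligand genes vegfaa and vegfab lay below 10 TPM in all 6 libraries and missed the threshold (adjusted p = 0.116 and 0.127; 0.0172 for vegfaa with the block), as did the co-receptor genes nrp1a and nrp2a.

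Chemokine, apelin and sphingosine lipid signalling was called in 12 of 15 tested genes, all toward fli1a-only cells, with a median of 2.16, and the replicate block added 1 toward sox10-only cells. With each library left out, 7 of the 12 were called. The apelin receptor genes aplnra, at 635, 204 and 336 TPM in fli1a-only and 21.8, 11.0 and 10.5 TPM in sox10-only libraries (4.59 ± 0.46; adjusted p = 0.00119), and aplnrb, at 250.6, 198 and 326 TPM in fli1a-only and 6.41, 8.42 and 14.4 TPM in sox10-only libraries (4.63 ± 0.33; adjusted p = 0.000351), were both abundant in fli1a-only cells. Their ligand genes apln (1.77 ± 0.29) and apela (2.06 ± 0.40; adjusted p = 0.0172, and 0.0596 without fli1a-only replicate 3) went the same way at lower levels. The chemokine gene cxcl12a stood at 79.2, 188 and 143 TPM in fli1a-only and 4.92, 15.3 and 12.1 TPM in sox10-only libraries (3.58 ± 0.47; adjusted p = 0.00365). Its decoy receptor gene ackr3b stood at 239.5, 303 and 331 TPM in fli1a-only and 70.8, 46.7 and 93.3 TPM in sox10-only libraries (2.08 ± 0.30; adjusted p = 0.00523). The signalling receptor gene cxcr4a, at 41.2, 153 and 258 TPM in fli1a-only and 7.60, 32.23 and 65.1 TPM in sox10-only libraries, overlapped between populations and was called with the block alone (adjusted p = 0.196 without it and 0.000501 with it). Its paralog cxcr4b was called toward fli1a-only cells, but lost the call whichever of the 6 libraries was left out (adjusted p = 0.156 without sox10-only replicate 2). The paralog of cxcl12a, cxcl12b, was also called toward fli1a-only cells, but not in every smaller set (adjusted p = 0.155 without fli1a-only replicate 2). The chemokine gene ccl25b stood at 68.8, 109 and 89.9 TPM in fli1a-only and 1.23, 5.30 and 2.31 TPM in sox10-only libraries (4.62 ± 0.41) and its receptor gene ccr9a at 13.02, 29.6 and 74.5 TPM in fli1a-only and 0.593, 0 and 6.65 TPM in sox10-only libraries (3.79 ± 0.88; adjusted p = 0.0345, and 0.107 without fli1a-only replicate 2).

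Among 22 tested Notch pathway genes 4 were called, or 7 with the replicate block, and 3 of the 4 encode ligands. The ligand genes dll4 and dlc (3.32 ± 0.62) and the glycosyltransferase gene mfng (2.63 ± 0.36; adjusted p = 0.00403) were higher in fli1a-only cells. The ligand gene dlb, at 45.64, 31.9 and 57.6 TPM in fli1a-only and 93.0, 103 and 169 TPM in sox10-only libraries, was higher in sox10-only cells (-1.40 ± 0.32; adjusted p = 0.0341, and 0.0996 without fli1a-only replicate 2). For dlc the adjusted p was 0.0148, and 0.0503 without fli1a-only replicate 3. Target genes followed the replicate number in both populations: her4.1 stood at 323, 22.2 and 394 TPM in fli1a-only and 963, 126 and 1141 TPM in sox10-only libraries, and her15.1 at 596, 39.2 and 746 TPM in fli1a-only and 1205, 115 and 1379 TPM in sox10-only libraries. Replicate 2 was lowest in each, and with the replicate block her4.1 reached an adjusted p of 0.00282, against 0.444 without it.

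Of 26 tested semaphorin, plexin, netrin, slit and robo genes, 5 were higher in fli1a-only and 2 in sox10-only cells, and 12 and 2 with the replicate block. The endothelial receptor gene robo4 stood at 9.79, 8.65 and 18.5 TPM in fli1a-only and 0.467, 1.32 and 1.41 TPM in sox10-only libraries (2.65 ± 0.37). For sema3e, whose product repels vessels, levels were 7.51, 5.09 and 6.32 TPM in fli1a-only and 0.537, 0.389 and 0.903 TPM in sox10-only libraries (2.18 ± 0.26; adjusted p = 0.00241). The netrin paralogs went opposite ways, ntn1a at 3.68, 3.67 and 4.61 TPM in fli1a-only and 0.302, 0.639 and 0.436 TPM in sox10-only libraries (1.77 ± 0.24; adjusted p = 0.00373) and ntn1b at 1.008, 0.677 and 1.33 TPM in fli1a-only and 12.1, 7.23 and 15.2 TPM in sox10-only libraries (-2.60 ± 0.33; adjusted p = 0.00294). Of 19 tested Eph receptors and ephrins, 2 were called, both toward fli1a-only cells, epha2a (1.43 ± 0.30; adjusted p = 0.0246, and 0.0906 without fli1a-only replicate 3) and efnb2b (1.35 ± 0.28; adjusted p = 0.0243, and 0.0909 without sox10-only replicate 2), and 9 were with the block.

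Cell junction genes were called in both directions. Of 17 tested claudins, 3 were higher in fli1a-only cells, or 5 with the replicate block, and 7 in sox10-only cells. The 3 were cldn5b, cldn11a, at 121, 128 and 134 TPM in fli1a-only and 5.18, 11.7 and 14.0 TPM in sox10-only libraries (3.61 ± 0.35; adjusted p = 0.001), and cldng, which was listed at 0 in every sox10-only library and stood at 23.5, 81.0 and 35.0 TPM in fli1a-only cells. Toward sox10-only cells, cldna and cldnb were joined by cldnj, at 1.04, 0.483 and 0.651 TPM in fli1a-only and 129, 37.2 and 136 TPM in sox10-only libraries (-5.69 ± 0.51; adjusted p = 0.000754), and by cldnc, cldnd, cldn7b and cldn19, of which cldnd and cldn7b lost their call when fli1a-only replicate 2 was left out (adjusted p = 0.0777 and 0.055). Of 7 tested cadherins 5 were called: cdh5 and the mesenchymal cdh11 (1.70 ± 0.27) toward fli1a-only cells, and the epithelial cdh1, at 0.248, 0.192 and 0.550 TPM in fli1a-only and 16.99, 13.8 and 13.7 TPM in sox10-only libraries (-3.58 ± 0.25; adjusted p = 0.000342), with cdh6 (-2.05 ± 0.32) and cdh10a (-2.58 ± 0.26) toward sox10-only cells. The widely used neural cadherin gene cdh2 stood at 16.6, 27.2 and 43.6 TPM in fli1a-only and 12.2, 30.7 and 53.6 TPM in sox10-only libraries and did not differ past the threshold. Among connexins, the vessel gene gja4, listed as cx39.4, stood at 51.8, 18.7 and 41.3 TPM in fli1a-only and 1.79, 2.18 and 2.09 TPM in sox10-only libraries (3.55 ± 0.39; adjusted p = 0.00165), and cx30.3, at 1.03, 1.47 and 7.41 TPM in fli1a-only and 165, 375 and 164 TPM in sox10-only libraries (-5.96 ± 0.60; adjusted p = 0.00116), was the single member called toward sox10-only cells.

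The paralog pairs given above as going opposite ways (alas1 and alas2, tfr1a and tfr1b, gata2a and gata2b, ednraa and ednrab, ntn1a and ntn1b) were singled out after their values were seen.

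Hox genes, which encode position along the body axis, were higher in sox10-only cells in 15 of 47 tested, with a median of -1.09; the block raised this to 26 and added 4 toward fli1a-only cells, and 6 of the 15 were called with each library left out. The trunk-level gene hoxb8a stood at 16.5, 19.6 and 22.5 TPM in fli1a-only and 275, 240.0 and 271 TPM in sox10-only libraries. That gave a log2 difference of -3.68 ± 0.21 (adjusted p = 0.000252). Its neighbour hoxb7a stood at 4.42, 3.91 and 7.98 TPM in fli1a-only and 89.8, 138 and 133 TPM in sox10-only libraries (-4.26 ± 0.32; adjusted p = 0.000373). The gene hoxd4a stood at 18.3, 22.0 and 13.6 TPM in fli1a-only and 95.5, 114 and 143 TPM in sox10-only libraries (-2.65 ± 0.26; adjusted p = 0.00109). Other Hox genes overlapped between the populations, such as hoxb5a at 17.06, 28.7 and 35.7 TPM in fli1a-only and 19.6, 21.3 and 35.2 TPM in sox10-only libraries. Among the posterior genes of group 13, hoxa13a and hoxb13a were high in fli1a-only replicates 1 and 3 and low in replicate 2. Levels of hoxa13a were 76.1, 5.57 and 36.5 TPM in fli1a-only and 2.94, 0 and 4.22 TPM in sox10-only libraries. Its group member hoxb13a stood at 109, 0 and 42.8 TPM in fli1a-only and 2.29, 0 and 1.12 TPM in sox10-only libraries. They missed the threshold (adjusted p = 0.0853 and 0.299), and hoxa13a passed it with the block (0.00271).

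The sox10-only libraries differed among themselves along their labelled stages, with 1 library for each stage and so no test. Of 7767 genes that reached 10 TPM in at least 1 of them, 362 were at least 2 higher on the log2 scale in the library labelled 36 hpf than in that labelled 20 hpf, and 35 were at least 2 lower. Median-of-ratios scaling factors were 0.853 and 1.24 for the libraries labelled 20 and 36 hpf, and these counts were made without them. The fli1a-only libraries all carry the label 36 hpf. Of the 362 genes, 344 were also higher in fli1a-only replicate 3 than in replicate 1, and 123 by at least 2. The factors of fli1a-only replicates 1 and 3 were 0.851 and 1.05. The share of all 7767 genes higher in fli1a-only replicate 3 was not counted, so the 344 are a description. Stage and replicate number cannot be told apart in the sox10-only libraries.

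Several cartilage collagen genes were highest in the library labelled 36 hpf. The gene col2a1a stood at 173, 157 and 6803 TPM in sox10-only cells with the labels 20, 28 and 36 hpf, col11a2 at 18.3, 7.43 and 471 TPM and col9a2 at 32.16, 17.6 and 587 TPM. In fli1a-only cells col2a1a stood at 138, 197 and 569.7 TPM. The cartilage sums overlapped between the populations, and col9a1a alone was called, toward fli1a-only cells (1.97 ± 0.33; adjusted p = 0.00985), or 2 genes with the block. The melanin synthesis genes tyrp1b and dct were highest in the library labelled 20 hpf and lowest in that labelled 36 hpf, unlike tyr, which was lowest at 20 hpf, and dct stood at 106, 52.8 and 34.3 TPM. The otic genes described above were lowest in the library labelled 28 hpf, and gch2 and mc1r were highest there.

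**Figure D5:**
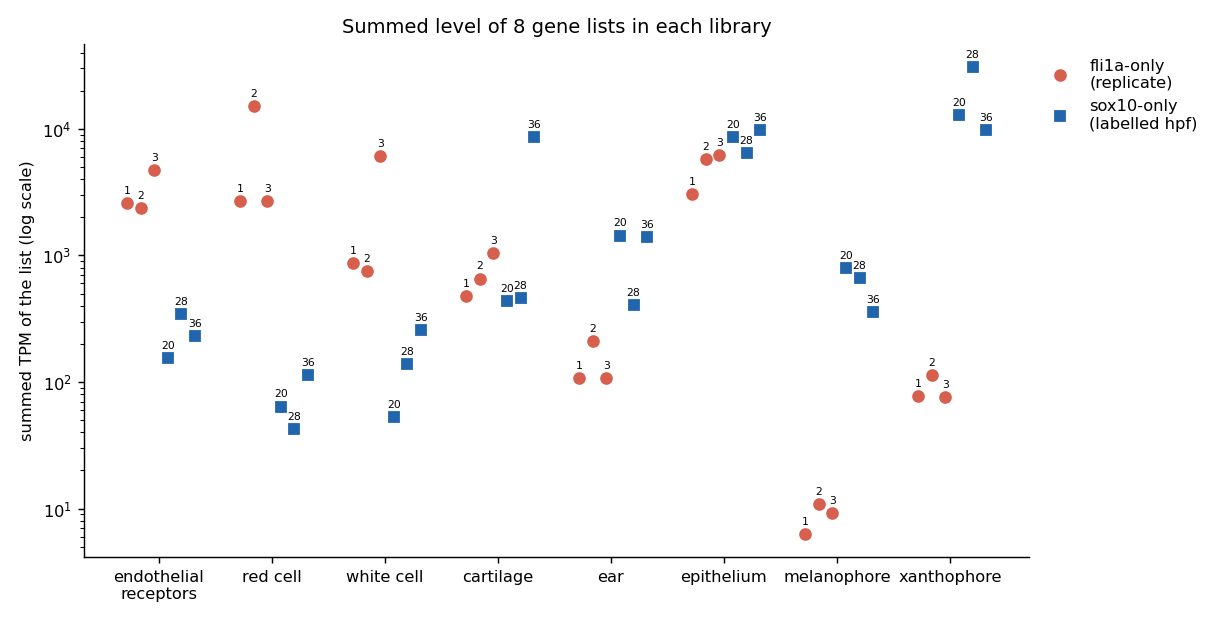
Summed TPM of 8 gene lists in each library, on a log scale, with sox10-only libraries marked by their labelled stage in hpf and fli1a-only libraries by replicate number. The cartilage sum is highest in the sox10-only library labelled 36 hpf, the ear sum is lowest in that labelled 28 hpf, and the red cell sum is highest in fli1a-only replicate 2.

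Of 26 tested cell cycle genes, 0 passed in limma without the block; 9 had an unadjusted p under 0.05, all toward fli1a-only cells, 5 passed with the replicate block, and the list median of 0.64 turned to -0.13 with globins kept and to -0.09 with the values as deposited. The proliferation gene mki67 stood at 201, 319 and 261 TPM in fli1a-only and 109, 143 and 230.3 TPM in sox10-only libraries. The replication factor gene pcna stood at 1378, 1459 and 1383 TPM in fli1a-only and 1209, 1242 and 1276 TPM in sox10-only libraries. Genes induced when tissue is dissociated into cells were high in both populations. Of 23 tested, 2 were higher in fli1a-only cells, against 1 in sox10-only cells, and 8 and 3 with the replicate block. The called genes were the phosphatase gene dusp1, at 1197, 748 and 1196 TPM in fli1a-only and 371, 233 and 424 TPM in sox10-only libraries (1.62 ± 0.33; adjusted p = 0.0211, and 0.0791 without fli1a-only replicate 3), the nuclear receptor gene nr4a1 (2.47 ± 0.55; adjusted p = 0.0293, and 0.103 without fli1a-only replicate 2), and egr3, at 14.9, 18.5 and 30.25 TPM in fli1a-only and 79.3, 141 and 128 TPM in sox10-only libraries (-2.41 ± 0.34; adjusted p = 0.00487). The immediate-early gene fosab stood at 11470.1, 6347 and 11231 TPM in fli1a-only and 8684, 4180.0 and 9648 TPM in sox10-only libraries. The heat shock gene hsp70l stood apart in fli1a-only replicate 2, the library with most globin and most red cell transcript, at 226, 4496 and 209 TPM in fli1a-only and 76.5, 178 and 66.7 TPM in sox10-only libraries, and its part in the differences was not tested.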

How the data were processed

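Deposited TPM values per gene, made by the authors from RNA sequencing, were used for 3 fli1a-only and 3 sox10-only libraries. RNA was isolated with RNeasy Micro columns and amplified with SMARTer reagents, and libraries were made with the Kapa Hyper kit and run on Illumina instruments, per the labels' protocols. The submitters' processing notes name TopHat2, Partek and the zebrafish build GRCz10. The handling of multiply mapping reads and of strand is not given in the labels, so levels of near-identical paralogs and overlapping genes are uncertain. Each deposited column summed to about 93168 and not to 1000000. Of 31953 genes, 15 globin genes were removed and each column was rescaled to 1000000. Of the identifiers, 26121 (81.7%) were in the reference table of gene names. The table held 19 gene names altered by a spreadsheet, of which 18 were recovered, and 3383 genes that share a name with another.

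Genes with a mean of at least 1 TPM over the 6 libraries were tested in limma (version 3.58.1, under R 4.3.3) as log2(TPM + 1) (trended and robust empirical Bayes, two-sided, Benjamini-Hochberg adjustment over all tested genes, threshold 0.05); an adjusted p is from this fit unless its sentence names the replicate block or a library left out. The log2(TPM + 1) scale understates the change of low genes. With 3 libraries against 3, a single value tested by exact permutation could not go below p = 0.10, so no such test was run. The labels do not state whether each replicate is a clutch of its own. The p-values therefore measure only how these samples spread, and that spread may be technical. Of the replicate numbers, taken from the titles, the same ones deviated together: correlations of deviations across 15009 genes were 0.673, 0.340 and 0.425 for numbers 1, 2 and 3 and between -0.41 and 0.087 for unlike numbers. The main fit did not use this pairing, so the fit with the number as a block is given where it changes a call. The steps were also run on simulated data drawn independently for each library. Those data lacked the shared deviations given above, so the run does not cover them.

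The populations and all gene lists were chosen with earlier results of these data known. Named genes are list members, preferring the largest differences, members called against their list and ligand and receptor pairs, and the 10 largest differences in each direction among called genes with at least 10 TPM in the higher population and no overlap. Alternatives were other pseudocounts, filters and scalings, globins kept, other fits and each library left out. Libraries of arch cells and mutants were not used in the comparison.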

Additional observations from a re-analysis of the deposited data

How the results depend on the processing

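Against 822 genes higher in fli1a-only cells and 965 higher in sox10-only cells, the values as deposited gave 230 and 1230 among 5807 tested, globins kept gave 554 and 2303, a mean of at least 5 TPM gave 555 and 582 among 9337 tested, and the sox10-only library labelled 36 hpf alone gave 205 and 551. The fit with the replicate number as a block gave 1427 and 1823. Among genes named with a difference, it changed no other call than those given beside their genes. Leaving out 1 library gave from 525 to 711 genes higher in fli1a-only cells and from 578 to 922 higher in sox10-only cells. The median difference of ETS genes turned to -0.118 with globins kept and -0.101 as deposited, that of GATA genes to -0.280 as deposited, and that of cell cycle genes to -0.132 and -0.0887. The shift of the median over all tested genes was widest with globins kept, at -0.79, and as deposited, at -0.65. Pseudocounts of 0.1 and 10, no filter, median-of-ratios scaling, quantile normalization, arch libraries in the fit and no trend gave between 602 and 1057 genes higher in fli1a-only cells and between 740 and 1331 in sox10-only cells. Medians of other lists turned too: skeletal muscle to -0.067 and -0.050 and the dissociation response to -0.37 and -0.37 with globins kept and as deposited, connexins to -0.39 and -0.34 in these and in 2 other alternatives, cartilage to 0.60 without sox10-only replicate 3 and claudins to 0.68 with a mean of at least 5 TPM. Those of mural, epithelial and matrix genes are given beside their lists, and those of Notch and central neural progenitor genes, near 0, turned as well. Of 181 genes named with a difference, 15 lost their call with a pseudocount of 10 and 15 without a filter. As deposited, 121 of them could be tested and 7 lost their call; with globins kept 180 and with a mean of at least 5 TPM 159 could be tested. None of the 181 genes changed sign in an alternative where it was tested. Apart from changes in the genes tested or the libraries used, the cause was not tested. The depth of each library is unknown, so precision at low TPM cannot be stated.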
